A study of Oedaleus asiaticus with 9 samples.

Results

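The microRNAs of adult females were compared with those of 3rd instar nymphs in the grasshopper *Oedaleus asiaticus*, which lives on the steppe grasslands of Asia. These stages are the ends of a developmental series whose middle stage is the 5th instar. Of the 9 small RNA libraries of the series, 6 enter the comparison. They are 3 libraries of adult females taken 3 days after emergence and 3 libraries of 3rd instar female nymphs at an age of 3 days. Both groups had normal feeding and no treatment. No source used here names the body part. Nor does any say whether the libraries of a stage are separate animals, so a p-value reflects only how these libraries vary, which may be technical. All 365 miRNA entries of the deposited table belong to the comparison: 291 have the name of a known family and 74 are predictions of the authors. Family names end in x, y or z, and no source used here says what these letters stand for. Of the 365 entries, 179 had enough reads to be tested, and the other 186 had at most 44 counts in any of the 6 libraries.

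A microRNA is a very short RNA that guides an Argonaute protein to messenger RNAs. Pairing runs mainly through the seed, bases 2 to 8 from the 5′ end, and the messenger is then repressed. In insects, microRNAs act in the timing of development, in ecdysone and juvenile hormone signalling, in growth through insulin signalling and in egg production. Grasshoppers pass from nymph to adult without a pupa, and the adult female of the first days after the final moult is building fat body reserves and ovaries.

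The following sequences are those of entries that passed the test and that the results below turn on. They are written 5′ to 3′ as the deposited table gives them, with T for U and with the seed in capitals.
miR-2765-x: tGGTAACTccaccaccgttggc
miR-277-y: tAAATGCActatctggtacgaca
predicted entry of 23 nt: aGTTGGAAgtggggatctcggca
miR-216-z: aAATATCAgttggtaattctga
miR-305-z: cTTTGTACtataccaggtgctc
miR-2788-y: cAATGCCCttggaaatcc
miR-9-z: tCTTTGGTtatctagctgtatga

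The next sequences are shown because each shares a seed, a start or most of its bases with an entry above.
miR-79-x: cCTTTGGTtatctagctgtatga
miR-9-x: cTTTGGTGatgtagctgtatga
miR-750-x: aGTTGGAAgtggggatctcggcat
miR-283-x: aAATATCAgttggtaattct
miR-283-z: aAATATCAgttggtaattctgggt
miR-305-x: aTTGTACTtcatcaggtgctctgg
The entry miR-79-x equals miR-9-z at 22 of 23 bases and has the same seed. The entry miR-9-x equals miR-9-z at 20 of 22 bases once its first base is set against the second base of miR-9-z, so its seed is shifted by 1 base. The same holds for miR-305-z and miR-305-x, equal at 17 of 21 bases after a shift of 1 base. The 23 nt predicted entry is the whole of miR-750-x without its last base. The 20 nt entry miR-283-x is the whole of miR-216-z without its last bases, and miR-216-z and miR-283-z are equal at 21 of 22 bases.

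Total counts over the listed entries were 1462586 to 3955332 in adult libraries and 3042011 to 5309504 in 3rd instar libraries. An entry with no count could still hold up to 2.05 CPM (counts scaled to a common library size) in the shallowest adult library, set by 3 counts. It could hold up to 0.986 CPM in the shallowest of the 3rd instar libraries by that rule, for counting error only. A single predicted entry of 18 nt took 66.3% ± 6.98 of the counts in adults and 70.6% ± 3.91 in 3rd instar libraries (SD, n = 3 each). That difference of -4.27 percentage points was not larger than the spread between libraries (exact permutation test, two-sided, p = 0.5, where 3 against 3 cannot go below 0.1). All values below are CPM normalised by TMM factors, which limit the pull of such an entry on the others.

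A small number of microRNAs differed between the ends of the series by the limits given here. The rises in adults were led by miR-277-y, miR-305-z, miR-216-z and the 23 nt predicted entry, and the falls by miR-2765-x, miR-2788-y and miR-21-x. These 7 of 179 tested entries, 3.91%, passed both limits that the study states, a log2 fold change beyond 1 in either direction and an adjusted p under 0.05 (edgeR quasi-likelihood test, Benjamini-Hochberg adjustment over the 179). Of them 4 were higher in adults (2.23% of the tested) and 3 lower (1.68%). With RLE factors the split was 3 higher and 4 lower, and with library totals alone it was 16 higher and 3 lower. Only miR-277-y, miR-2765-x and the 23 nt predicted entry were called in every other setting that could test them. With the adjusted p alone, 14 entries passed (7.82%), 7 in each direction, and with library totals alone 27 were higher and 4 lower. Without any adjustment 64 entries had a p under 0.05 (35.8%), and in 56 (31.3%) the libraries of the stages did not overlap. In bulk RNA, fewer cells of a type and less of a microRNA per cell cannot be told apart.

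**Figure D1:**
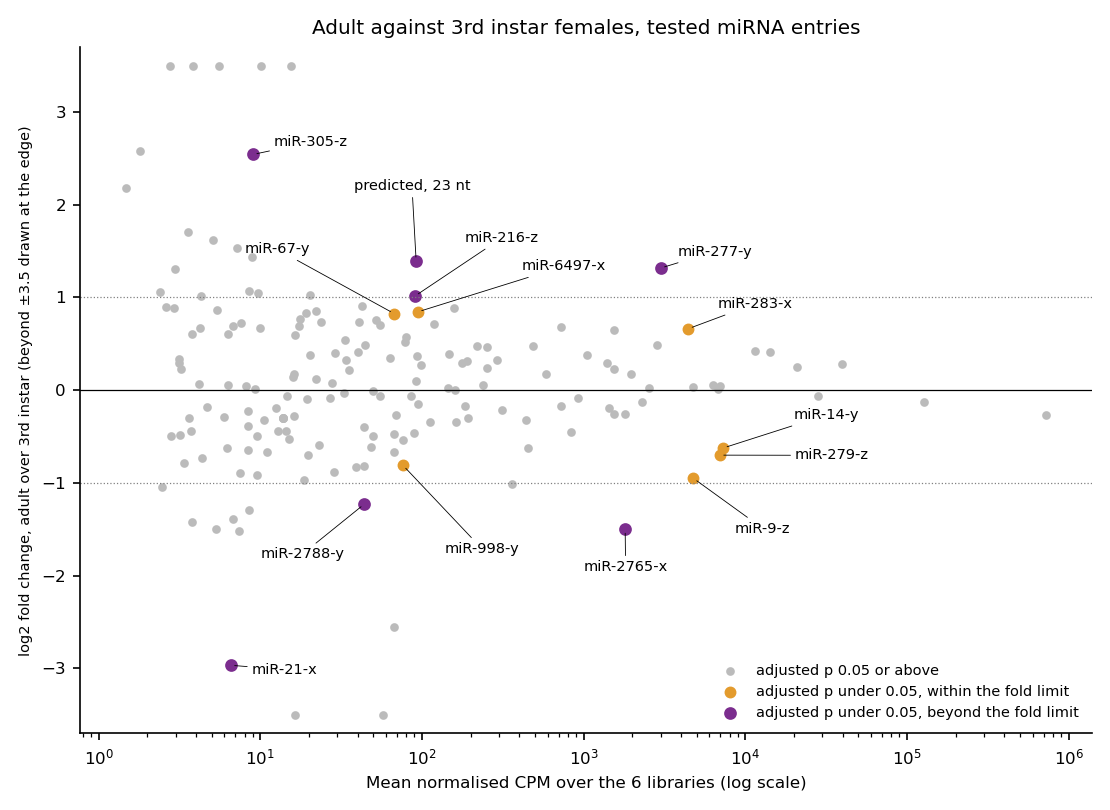
Each point is 1 of the 179 tested entries, placed by its mean normalised CPM over the 6 libraries (log scale) and its log2 fold change, adult over 3rd instar. The 4 called rises and 3 called falls are purple, and the 7 entries that pass the adjusted p but lie within the fold limit are orange; entries with few reads scatter most.

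Among the 4 called rises, miR-277-y was by far the most abundant. In Drosophila it is known for repressing the breakdown of branched-chain amino acids, and in mosquitoes it acts on insulin-like peptides, fat stores and egg development. It had 5783, 3266 and 3779 CPM in adult libraries, against 1827, 1719 and 1604 CPM in 3rd instar libraries. The lowest adult library lay well above the highest of the 3rd instar, and adult replicate 1 was the highest of all. The log2 fold change was 1.32 ± 0.20 (SE), with an adjusted p of 0.00123 (edgeR). The 5th instar mean of 1972 ± 240 CPM (SD, n = 3) was close to that of the 3rd instar.

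The 23 nt predicted entry had 139, 134 and 128 CPM in adults and 50.5, 57.4 and 44.7 CPM in the 3rd instar. Its adult libraries were nearly alike and stood apart from all 3rd instar libraries. It rose by 1.39 ± 0.17 on the log2 scale (adjusted p = 0.000397, edgeR). Its longer neighbour miR-750-x had 31.8, 10.9 and 21.7 CPM in adults and 18.1, 12.3 and 9.26 CPM in the 3rd instar. Those groups overlapped, and the log2 fold change of 0.69 ± 0.43 did not pass (adjusted p = 0.265, edgeR).

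All 3 tested entries with the seed of miR-283 had higher values in adults, and 2 of them passed. The names are those of a Drosophila cluster microRNA (miR-283) and of a family named first in vertebrates (miR-216), but in the table they differ only at the 3′ end. miR-216-z had 171, 81.4 and 110 CPM in adults and 67.8, 59.7 and 51.8 CPM in the 3rd instar. Its groups did not overlap, although adult replicate 2 was not far above the highest nymphal library, and it rose by 1.01 ± 0.25 (adjusted p = 0.0278, edgeR), just past the fold limit. The shorter and far more abundant miR-283-x had 6898, 4614 and 4833 CPM in adults and 3627, 3430 and 3266 CPM in the 3rd instar. It rose by 0.66 ± 0.16 (adjusted p = 0.0262, edgeR), within the fold limit. For miR-283-z the log2 fold change was 0.54 ± 0.24 and did not pass (adjusted p = 0.128, edgeR). Reads of one of these nested forms could have been counted in another, so the 3 values may not be independent.

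The call with the fewest reads among the rises was miR-305-z, with 10.6, 29.5 and 6.08 CPM in adults and 3.68, 1.49 and 2.65 CPM in the 3rd instar. In Drosophila, miR-305 links insulin and Notch signalling in the stem cells of the gut. The log2 fold change was 2.54 ± 0.65 (adjusted p = 0.0282, edgeR), and without adult replicate 2, the highest library, it was 1.64 and did not pass (adjusted p = 0.106, edgeR). The abundant miR-305-x, whose seed is shifted by 1 base, had 7559, 6078 and 6793 CPM in adults and 7844, 6010 and 6446 CPM in the 3rd instar, with a log2 fold change of 0.01 ± 0.16.

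The clearest fall was that of miR-2765-x, a microRNA of insects. It had 971, 947 and 921 CPM in adults and 2613, 2281 and 3119 CPM in the 3rd instar. Adult libraries agreed closely, and every 3rd instar library lay far above all of them. It fell by 1.50 on the log2 scale, with an SE of 0.16 and an adjusted p of 0.000164 (edgeR), the smallest of all entries. The 5th instar mean of 1283 ± 231 CPM (SD, n = 3) lay between the ends. The longer form miR-2765-z, which adds bases to the 3′ end, was rare at 2.65, 6.84 and 1.74 CPM in adults and 12.0, 5.60 and 12.1 CPM in the 3rd instar. Its log2 fold change of -1.39 ± 0.59 did not pass (adjusted p = 0.122, edgeR).

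miR-2788-y, listed as an 18 nt sequence, had 16.5, 34.2 and 27.8 CPM in adults and 72.9, 54.8 and 58.0 CPM in the 3rd instar. It fell by 1.23 on the log2 scale (SE 0.28, adjusted p = 0.0262, edgeR). Its 5th instar mean was 72.1 ± 15.4 CPM (SD, n = 3), above both ends.

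The third called fall, miR-21-x, bears the name of a vertebrate family. It had 0.662, 2.18 and 1.30 CPM in adults and 17.7, 7.09 and 10.4 CPM in the 3rd instar, a log2 fold change of -2.97 ± 0.71 (adjusted p = 0.0262, edgeR). Adult replicate 1 rests on a single count. Of the 6 entries with names from a list of vertebrate families, 3 could be tested and all 3 had lower means in adults. Among all 179 tested entries, 82 had lower values in adults. The list is not a full one and was chosen with earlier results of these data known. miR-143-y had 15.2, 28.0 and 15.4 CPM in adults and 168, 29.5 and 149 CPM in the 3rd instar (log2 fold change -2.56 ± 0.70, adjusted p = 0.071, edgeR), and for miR-29-y it was -0.92 ± 0.56 (adjusted p = 0.258, edgeR). The CPM of all entries of that list summed to 23.8 to 36.1 in adults and 54.5 to 203 in the 3rd instar. In every adult and 3rd instar library, miR-143-y alone gave most of that sum. The part of sequence from other animals in these values was not tested. No entry bears the name of a plant family.

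The remaining 7 entries that passed the adjusted p lay within the fold limit, and 4 of them are abundant. miR-9-z, whose Drosophila relative miR-9a keeps the number of sensory organ precursors in check, had 3457, 3171 and 3156 CPM in adults and 6990, 5768 and 6148 CPM in the 3rd instar. It fell by 0.95 (SE 0.13, adjusted p = 0.000626, edgeR), just short of the limit, and its 5th instar mean of 5242 ± 289 CPM lay between the ends. miR-279-z, whose Drosophila relative shapes olfactory neurons and circadian output, had 5692, 5352 and 4834 CPM in adults and 9092, 7694 and 9011 CPM in the 3rd instar. Its fall of 0.70 had an SE of 0.15 and an adjusted p of 0.0162 (edgeR).

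miR-14-y belongs to a family that in Drosophila tunes the ecdysone receptor, fat stores and cell death. It had 5881, 5573 and 5792 CPM in adults and 10270, 8478 and 7816 CPM in the 3rd instar, and it fell by 0.62 (SE 0.15, adjusted p = 0.0262, edgeR). With library totals alone it no longer passed (adjusted p = 0.162), nor did miR-279-z (adjusted p = 0.0794, edgeR). miR-998-y, encoded in an intron of the cell cycle gene E2f1 in Drosophila, had 59.5, 54.7 and 52.1 CPM in adults and 82.2, 114 and 95.4 CPM in the 3rd instar. It fell by 0.81 (SE 0.19, adjusted p = 0.0262, edgeR), and with library totals alone its adjusted p was 0.0502.

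The other rises within the fold limit, beside miR-283-x, were those of miR-67-y and miR-6497-x. miR-67-y had 86.0, 87.3 and 85.1 CPM in adults and 38.8, 55.2 and 51.8 CPM in the 3rd instar, a rise of 0.83 ± 0.21 (adjusted p = 0.0278, edgeR). miR-6497-x had 132, 130 and 102 CPM in adults and 59.2, 66.8 and 76.3 CPM in the 3rd instar, a rise of 0.84 ± 0.22 (adjusted p = 0.0282, edgeR). In 11 of the 14 entries that passed, the 5th instar mean lay between the means of the ends. Among all 179 tested entries this held for 93 (52%), and a wide gap between the ends makes it more likely. The 3 exceptions among the 14 were miR-14-y, miR-2788-y and miR-21-x.

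**Figure D2:**
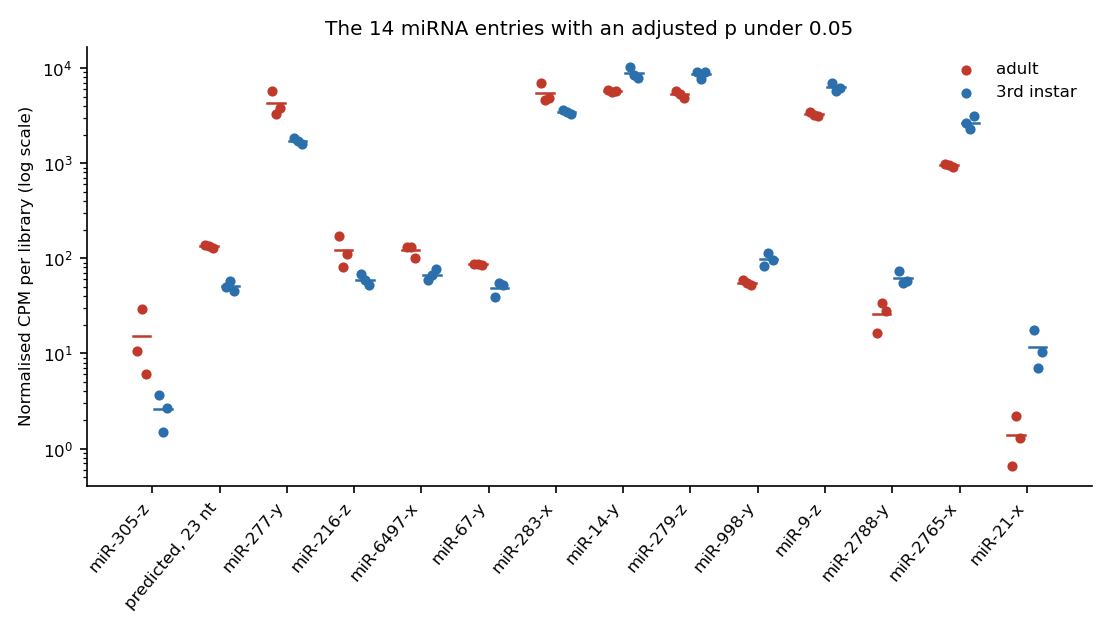
Normalised CPM (log scale) of the 14 entries with an adjusted p under 0.05, adult libraries in red to the left of 3rd instar libraries in blue, with a bar at each mean (n = 3). Entries run from the largest rise, miR-305-z, to the largest fall, miR-21-x; the stages do not overlap in any of the 14.

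Beyond the entries that passed, the largest changes without overlap between the stages were of lower or more variable entries. On the side of higher adult values, miR-236-y had 19.8, 13.1 and 6.30 CPM in adults and 4.34, 4.10 and 5.51 CPM in the 3rd instar (log2 fold change 1.44 ± 0.45, adjusted p = 0.071, edgeR). miR-745-z had a log2 fold change of 1.07 ± 0.38 and miR-7550-x of 1.05 ± 0.39, both with an adjusted p of 0.0991 (edgeR). On the side of lower adult values, miR-2796-y had 236, 182 and 299 CPM in adults and 466, 682 and 304 CPM in the 3rd instar (log2 fold change -1.02 ± 0.41, adjusted p = 0.124, edgeR). Its lowest nymphal library was barely above its highest adult one.

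Since targets are set by the seed, counts were also summed over entries that share bases 2 to 8, which gave 131 tested seed groups. Of these, 8 were called (6.11%), 3 higher and 5 lower in adults, and 15 passed the adjusted p alone (11.5%). CPM of seed groups have scaling factors of their own, so they can lie slightly below those of their members. The group CTTTGGT, which is miR-9-z with miR-79-x, averaged 3181 ± 109 CPM in adults and 6410 ± 675 CPM in the 3rd instar (SD, n = 3 each). It fell by 1.01 (SE 0.11, adjusted p = 0.000449, edgeR) and so passed the fold limit that miR-9-z alone had missed. It passed the adjusted p in all of 17 other settings but the fold limit in 8 of them, with log2 fold changes from -1.13 to -0.76. miR-143-y, alone in its group, was called too (log2 fold change -2.63 ± 0.67, adjusted p = 0.0424, edgeR), but in 5 of 17 other settings, with an adjusted p of up to 0.166. The other called groups hold the called entries above, except that the group of miR-216-z stayed within the fold limit.

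Among the groups within the limit was AATATCA, the seed of miR-283-x, miR-216-z and miR-283-z. It averaged 5445 ± 1122 CPM in adults and 3580 ± 177 CPM in the 3rd instar, a rise of 0.60 ± 0.15 (adjusted p = 0.0312, edgeR), and it passed in 11 of 17 other settings. The group GACTAGA holds 3 tested entries, whose sequences show how they differ behind the shared seed.
miR-279-z: tGACTAGAttcacactcatcct
miR-279-y: tGACTAGAtccacactcatc
miR-996-z: tGACTAGAgtgacactcgtca
The entries miR-279-z and miR-279-y are equal at 19 of 20 bases, and miR-279-z and miR-996-z at 17 of 21. Summed, the group averaged 6861 ± 253 CPM in adults and 10824 ± 968 CPM in the 3rd instar, a fall of 0.66 (SE 0.11, adjusted p = 0.0042, edgeR). By member, the log2 fold change was -0.70 for miR-279-z, -0.25 ± 0.12 for miR-279-y (adjusted p = 0.175, edgeR) and 0.27 ± 0.19 for miR-996-z (adjusted p = 0.309, edgeR). The groups of miR-71-x with miR-71-z (fall of 0.52, SE 0.14) and of miR-316-y (fall of 0.67, SE 0.18) passed as groups, each with an adjusted p of 0.0424 (edgeR), where no member passed alone. Each passed in 4 of 17 other settings, with an adjusted p of up to 0.351 for the first and 0.233 for the second. In locusts, miR-71 is known to act on chitin synthesis during the moult.

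Many entries of the table are the same sequence cut at different 3′ ends, and the longer and the shorter form did not always change together. These pairs were picked out after their values were seen. There were 24 pairs of tested entries in which one sequence is the other with bases added at its 3′ end. Examples are the following.
miR-8-z: tAATACTGtcaggtaacgatgtct
miR-8-y: tAATACTGtcaggtaacgatgtc
miR-14-z: tCAGTCTTtttctctctcctattt
miR-14-y: tCAGTCTTtttctctctcctat
miR-307-y: tCACAACCtccttgagtgagc
miR-67-y: tCACAACCtccttgagtgag
In 17 of the 24 pairs the longer form had the lower log2 fold change, and in 7 the higher. In 10 pairs the ratio of the longer to the shorter form did not overlap between the stages, and in all 10 the longer form made up relatively less in adults. Of single tested entries, 31.3% did not overlap. A ratio of 2 entries of 1 library does not depend on the scaling. No source used here says how a read that fits both forms was assigned, and reads may have been counted in both.

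Among the 10 pairs without overlap, the one with most reads was miR-8, a regulator of growth through insulin signalling in Drosophila. The counts of miR-8-z were 66.5%, 60.0% and 62.3% of those of miR-8-y in adults and 84.8%, 72.5% and 85.5% in the 3rd instar. Every adult library lay below every nymphal one, although neither form differed by itself (log2 fold changes 0.29 ± 0.24 for miR-8-y and -0.06 ± 0.31 for miR-8-z). For miR-14 the log2 fold change was -1.52 ± 0.45 for the 24 nt form and -0.62 for the 22 nt form. The 24 nt form is rare, with 3, 16 and 19 counts in adults. Its counts were 0.0338%, 0.0892% and 0.0712% of those of the 22 nt form in adults and 0.156%, 0.0968% and 0.116% in the 3rd instar.

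For miR-71 the longer form was 0.775%, 0.529% and 0.778% of the shorter in adults, against 1.27%, 1.09% and 1.42% in the 3rd instar. For miR-317 it was 4.68%, 2.13% and 2.77% in adults, against 5.37%, 5.54% and 6.32% in the 3rd instar. In miR-317 the gap between the stages was narrow next to the spread within the adults. The counts of miR-307-y, a single base longer than miR-67-y, were 282%, 301% and 299% of those of miR-67-y in adults and 409%, 349% and 377% in the 3rd instar. miR-307-y itself had a log2 fold change of 0.47 ± 0.16 and did not pass (adjusted p = 0.0954, edgeR), while miR-67-y did. The other 5 pairs without overlap were miR-72-x with miR-31-x, miR-281-y with miR-46-y, miR-9-y with miR-79-y, miR-100-x with miR-99-x and miR-745-z with miR-980-y. In the last of these, miR-980-y had only 5, 5 and 6 counts in the 3rd instar.

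Not all pairs took that direction. In miR-216-z against miR-283-x the longer form had the higher log2 fold change by 0.35, in miR-34-z against miR-34-x by 0.31, in miR-125 by 0.17 and in let-7 by 0.14, each with overlapping ratios. In miR-276, the pair with most reads of all 24, the longer form was higher by 0.10, also with overlap. The libraries of a stage also differed among themselves. The median over the 24 pairs of the log2 ratio, as a deviation from the mean of the pair, was 0.06, -0.26 and -0.14 in adult libraries, -0.09, -0.11 and -0.13 in 5th instar libraries, and 0.39, 0.06 and 0.13 in 3rd instar libraries. Replicate 1 of the 3rd instar stood highest, and adult replicate 1 was level with 3rd instar replicate 2. The part that 3′ ends of single libraries have in the pattern was not tested.

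**Figure D3:**
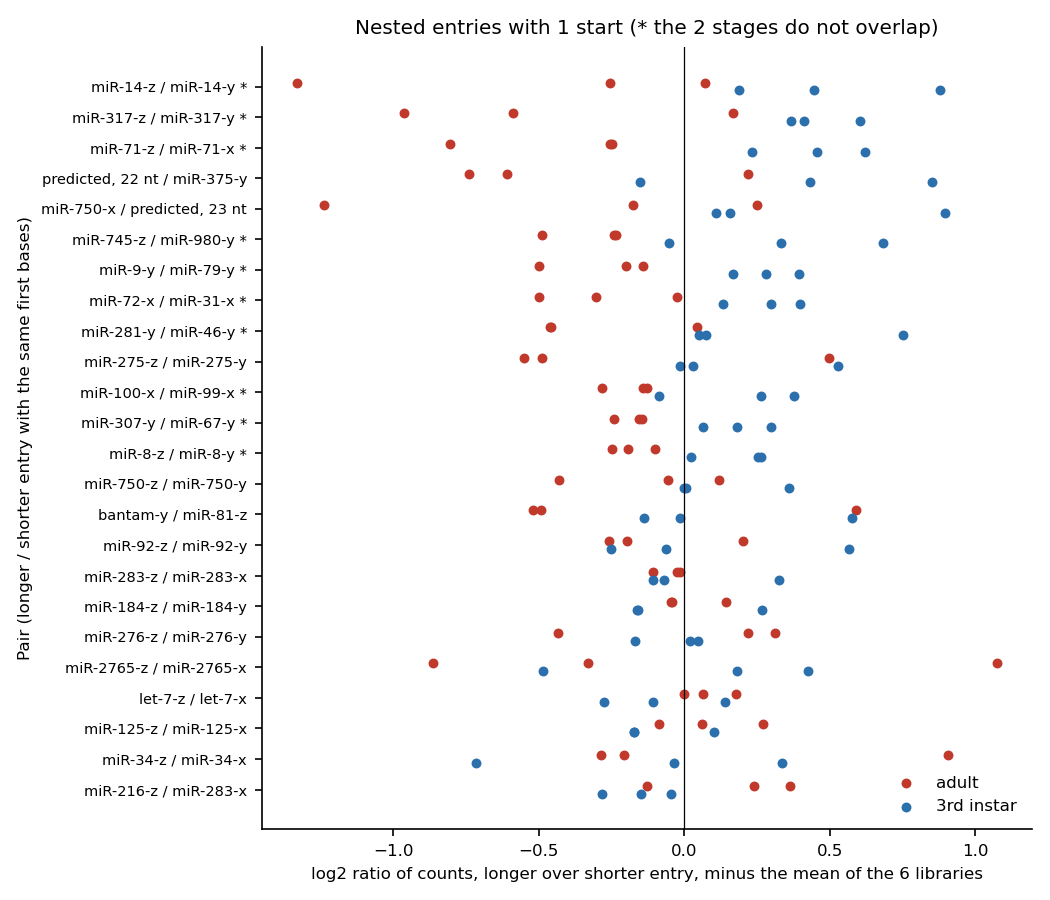
For each of the 24 nested pairs, the log2 ratio of counts, longer over shorter form, minus the mean of the 6 libraries, with adult libraries in red above 3rd instar libraries in blue. The 10 pairs with a star have no overlap between the stages, and in each the adult libraries lie to the left.

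For 19 names an x and a y entry could both be tested. Their log2 fold changes had the same sign in 11 names and opposite signs in 8. Against 31.3% of single tested entries without overlap, the ratio of x to y did not overlap between the stages in 8 names. The x entry gained on the y entry in 6 of these (let-7, miR-1, miR-8, miR-125, miR-316 and miR-1175) and the y entry gained in the other 2 (miR-79 and miR-190). For let-7, the timing microRNA of the larva-to-adult step in worms and flies, the counts of x were 50.1, 61.1 and 57.6 times those of y in adults and 34.3, 40.6 and 37.6 times in the 3rd instar. Neither entry passed by itself (let-7-x 0.18 ± 0.15, let-7-y -0.39 ± 0.23). For miR-79 the ratio was 0.0429, 0.0503 and 0.0699 in adults and 0.157, 0.167 and 0.131 in the 3rd instar. The log2 fold change was -0.89 ± 0.35 for its x entry (adjusted p = 0.104, edgeR) and 0.57 ± 0.19 for its y entry (adjusted p = 0.0817, edgeR). For miR-316 the ratio was 3.00, 2.67 and 1.95 in adults and 1.41, 1.53 and 1.64 in the 3rd instar.

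**Figure D4:**
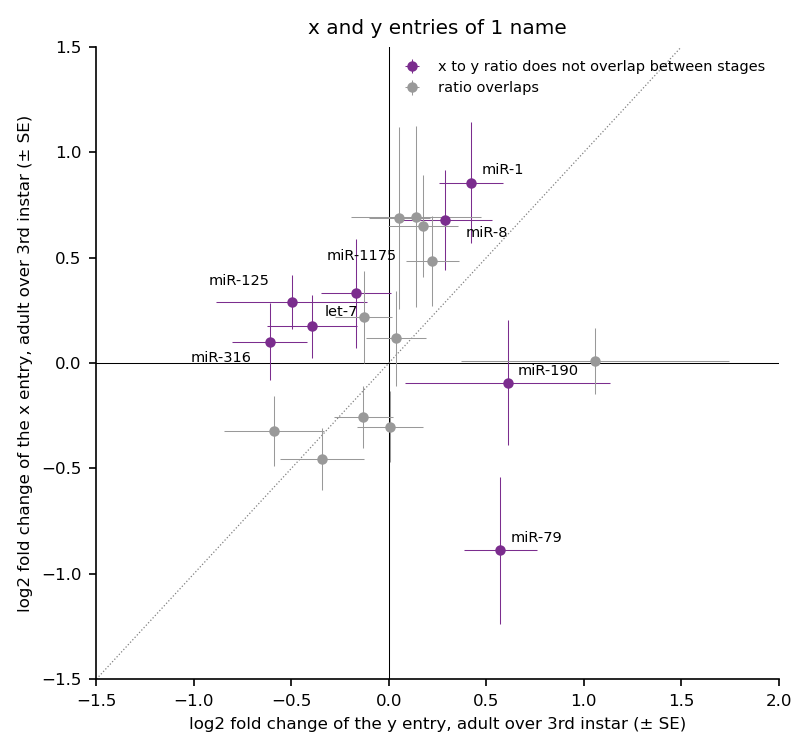
log2 fold change, adult over 3rd instar, of the x entry against that of the y entry for 19 names, with SE bars; points above the dotted line have the larger value for x. The 8 purple names are those whose ratio does not overlap between the stages, with 6 above the line and 2 (miR-79 and miR-190) below it.

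Lists of microRNAs by known role were read against all tested entries, of which 97 (54.2%) had higher and 82 lower values in adults, with a median log2 fold change of 0.05. Among the microRNAs of developmental timing, the let-7 complex (let-7, miR-100 and miR-125) had 6 of 8 tested entries higher and a median of 0.23. None of the 8 passed the test. The entry with the smallest adjusted p was miR-125-z, with 357, 260 and 262 CPM in adults and 230, 228 and 179 CPM in the 3rd instar (log2 fold change 0.46 ± 0.18, adjusted p = 0.102, edgeR). Its stages did not overlap, in contrast to those of let-7-z at 0.32 ± 0.17 and of miR-100-z at 0.47 ± 0.19.

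For the hormones, the list of juvenile hormone and its response gene Kr-h1 (let-7, miR-2, miR-13 and miR-278) had 4 of 7 tested entries higher, a median of 0.18 and none that passed. With library totals alone 6 of the 7 were higher. miR-2-y, a repressor of Kr-h1 at the final moult of cockroaches, had 1421, 1314 and 1299 CPM in adults and 1504, 1430 and 1670 CPM in the 3rd instar (log2 fold change -0.19 ± 0.12, adjusted p = 0.258, edgeR). In the list of ecdysone signalling and moulting, 12 of 21 tested entries were higher and 9 lower, with a median of 0.17. Only miR-14-y passed, and it fell. miR-71-x, with 769, 646 and 698 CPM in adults and 975, 1100 and 823 CPM in the 3rd instar, did not overlap between the stages (log2 fold change -0.46 ± 0.15, adjusted p = 0.0756, edgeR).

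For female reproduction, 8 of 14 tested entries were higher and 6 lower, with a median of 0.06, and miR-277-y was the 1 entry that passed. With RLE factors the split was 7 and 7, and with library totals alone 12 and 2. The other members that are abundant did not pass: the log2 fold change was 0.29 ± 0.24 for miR-8-y and 0.25 ± 0.17 for bantam-y. The log2 fold change was -0.13 ± 0.15 for miR-276-y, which in locusts synchronises egg hatching. It was 0.04 ± 0.15 for miR-184-y, which acts in the Drosophila female germ line, and -0.13 ± 0.15 for miR-275-y, needed for egg development in mosquitoes. The list of growth, insulin signalling and metabolism had 10 of 13 tested entries higher, a median of 0.25, and 3 that passed, all given above, where 7.82% of all tested entries passed: miR-277-y and miR-305-z rose and miR-14-y fell. bantam-y is a growth and survival microRNA of Drosophila. For miR-8-x the log2 fold change was 0.68 ± 0.24 (adjusted p = 0.0991, edgeR). In the miR-34 cluster (miR-34, miR-277 and miR-317, neighbours in Drosophila), 5 of 6 tested entries were higher with a median of 0.39, and miR-277-y alone passed.

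In the Hox cluster all 7 tested entries, which hold 4 different sequences, had lower values in adults, with a median of -0.30, and none passed. These microRNAs lie among the genes that give segments their identity. miR-10-x had 416, 438 and 327 CPM in adults and 510, 526 and 441 CPM in the 3rd instar (log2 fold change -0.32 ± 0.16, adjusted p = 0.188, edgeR), without overlap. miR-10-y had a log2 fold change of -0.59 ± 0.26, and miR-993-y had 13.9, 11.8 and 12.0 CPM in adults and 21.1, 37.3 and 15.4 CPM in the 3rd instar (-0.97 ± 0.37, adjusted p = 0.102, edgeR). Of the apoptosis list, 2 of 7 tested entries were higher and 5 lower, with a median of -0.19, but with library totals alone 4 were higher. Its 1 entry that passed was miR-14-y.

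The medians of the muscle list and the neuron list differed in sign. Of the muscle microRNAs, miR-1 and miR-133, all 4 tested entries were higher in adults without overlap between the stages and with a median of 0.40, but none passed. miR-1-y had 16149.6, 11399.9 and 11900.2 CPM in adults and 10095, 11038 and 8318 CPM in the 3rd instar (log2 fold change 0.42 ± 0.17, adjusted p = 0.104, edgeR). Its adult replicate 2 was only just above 3rd instar replicate 2. In its seed group GGAATGT, which has scaling factors of its own, the stages overlapped. There adult replicate 2 had 11129 CPM, against 11158 CPM in 3rd instar replicate 2. All of the 4 entries but miR-133-z bear the name miR-1. The sequence of miR-1-z departs from that of miR-1-y at the last base only. miR-1-x had 34.4, 23.6 and 28.0 CPM in adults and 15.0, 17.5 and 14.8 CPM in the 3rd instar (0.86 ± 0.29, adjusted p = 0.0861, edgeR), and miR-133-z had a log2 fold change of 0.32 ± 0.17. Among all tested entries, 16.2% were higher in adults without overlap.

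The neuron list is not of neuron markers alone, since the Drosophila relative of miR-9-z acts on sensory organ precursors, as given above. Of its 9 tested entries, 8 were lower in adults and 1 higher, with a median of -0.44. The 2 that passed were the falls of miR-9-z and miR-279-z, where 7.82% of all tested entries passed. With RLE factors all 9 were lower. Outside the miR-9 and miR-279 families there remained 4 tested entries, all lower with a median of -0.53, none of which passed. In each of these 4 the stages overlapped. miR-137-y had 8.60, 21.4 and 14.8 CPM in adults and 25.4, 20.9 and 27.3 CPM in the 3rd instar (log2 fold change -0.70 ± 0.32, adjusted p = 0.142, edgeR). For miR-315-x it was -0.62 ± 0.42 (adjusted p = 0.304, edgeR), and for the neuron microRNA miR-124-y -0.44 ± 0.62 (adjusted p = 0.634, edgeR). miR-124-y is rare, with 2, 14 and 16 counts in adults and 10, 17 and 16 in the 3rd instar. The part of tissue makeup in the values of the muscle and neuron lists was not tested.

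**Figure D5:**
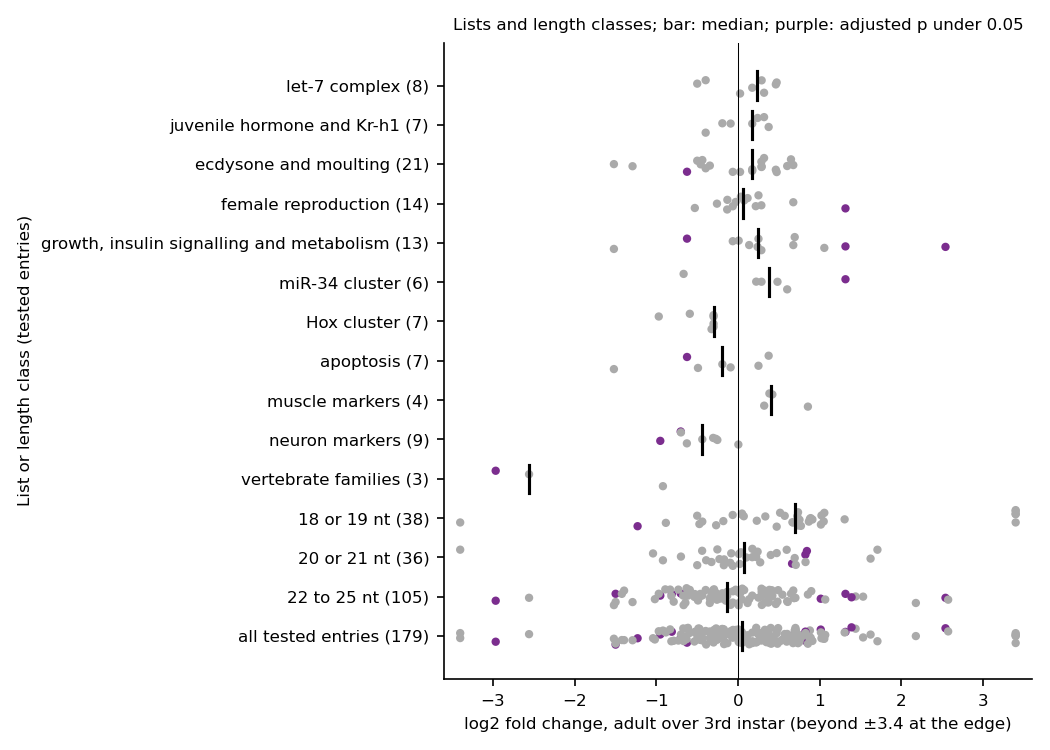
log2 fold changes, adult over 3rd instar, of the tested entries of each list and length class, with the number of tested entries in brackets, a black bar at the median and purple points for an adjusted p under 0.05. The medians run from -2.56 for the vertebrate families to 0.70 for entries of 18 or 19 nt, against 0.05 for all tested entries.

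Of the 38 tested entries of 18 or 19 nt, 29 were higher in adults and 9 lower, with a median log2 fold change of 0.70. Of these, 4 were higher without overlap, against 16.2% of all tested entries. Entries of 20 or 21 nt had 21 higher and 15 lower and a median of 0.07, but 18 and 18 with RLE factors and 26 and 10 with library totals alone. The entries of 22 to 25 nt had 47 higher and 58 lower and a median of -0.13. Of the 38 short entries, 1 passed, the fall of miR-2788-y. With library totals alone the entries of 22 to 25 nt had 56 higher and 49 lower. Without the most abundant entry, the 18 and 19 nt entries took 0.313%, 0.702% and 0.534% of the counts in adults and 0.267%, 0.518% and 0.325% in the 3rd instar, so the shares overlapped between the stages.

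There were 12 entries with a count in every adult library and none in any 3rd instar library, 10 of them of 18 or 19 nt. Among all 365 entries 121 are that short, and among the 186 untested 83. Of the 12, only miR-7197-y and miR-10374-y had enough reads to be tested. The entry with most reads, miR-7197-y, had 9, 71 and 24 counts in adults and 0 in each 3rd instar library. Set against 3 counts over the 3rd instar libraries together, a bound for counting error only, it was at least 37.7-fold higher in adults. It did not pass the test (adjusted p = 0.102, edgeR). miR-10374-y had 1, 33 and 26 counts in adults and was at least 18.8-fold higher by the same rule, but did not pass either (adjusted p = 0.0659, edgeR). Libraries of 1 stage varied widely: in the 5th instar miR-7197-y had 41, 0 and 46 counts and miR-10374-y 0, 16 and 6. In both entries, adult replicate 2 held most of the adult counts, and without it the bounds were 19-fold and 10.7-fold. The opposite pattern was found in 2 entries, miR-2211-x with 3, 4 and 4 counts in the 3rd instar and a predicted entry of 22 nt with 6, 1 and 8 counts, both without a count in adults or in the 5th instar.

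Of the 28 tested entries with a mean of at least 1000 CPM, 6 passed the adjusted p and 11 did not overlap between the stages, against 7.82% and 31.3% of all tested entries. Of the 10 entries with the highest mean CPM, miR-279-z and miR-14-y passed. miR-31-x had 15451, 18122 and 15167 CPM in adults and 10864, 9555 and 16148 CPM in the 3rd instar, where replicate 3 reached the adult level (log2 fold change 0.41 ± 0.25, adjusted p = 0.258, edgeR). miR-306-x had 8142, 6727 and 6535 CPM in adults and 7477, 6415 and 6816 CPM in the 3rd instar, a log2 fold change of 0.05 ± 0.14.

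The calls differ in how often they were kept with fewer libraries or other settings, and a fit with fewer libraries has less power. miR-2765-x and miR-277-y were called under each of 21 other settings or left-out libraries, and the 23 nt predicted entry in each of the 20 in which it could be tested. miR-9-z passed the adjusted p in all 21. When 3rd instar replicate 1 or replicate 3 was left out, those 3 entries were the only calls. miR-216-z was called in 7 of 21, miR-305-z in 16 of 21, and miR-2788-y and miR-21-x each in 16 of 20. miR-2788-y was lost without 3rd instar replicate 1 or 3 or adult replicate 3 (adjusted p 0.0624 to 0.112, edgeR), and without adult replicate 1 its log2 fold change was -0.99. The same 4 libraries ended the call of miR-21-x (adjusted p 0.0589 to 0.173, edgeR), with log2 fold changes of -3.04 to -2.52 against -2.97 with all libraries. The call of miR-305-z was lost without adult replicate 2 or any 3rd instar library (adjusted p 0.106 to 0.142, edgeR). Its log2 fold change was 2.22 to 2.88 without a 3rd instar library, and 1.64 without adult replicate 2. The call of miR-216-z was lost without adult replicate 1 or 3 or any 3rd instar library (adjusted p 0.0583 to 0.135, edgeR). With all libraries kept, other settings also ended it by placing the log2 fold change just under the limit. It was 0.96 with RLE factors, 0.95 with DESeq2, 0.999 with no filter and 0.92 with known entries only. Of the 7 entries within the fold limit, the 6 other than miR-9-z each lost the adjusted p without at least 1 library. In those cases it ran from 0.0520 for miR-67-y without adult replicate 2 to 0.171 for miR-14-y without 3rd instar replicate 1 (edgeR).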

How the data were processed

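Small RNAs of 15 to 30 nt were cut from a gel, ligated, reverse-transcribed, amplified and read as 50 bp single ends on an Illumina HiSeq instrument, per the labels' protocols. No source used here gives the aligner, counter or reference. Positions are not reported, since no genome was at hand. The deposited table gives raw read counts and TPM values per entry and library, per the file headers. The authors' TPM values scale each count by a library total and were used only for an alternative total, of which the listed counts are 97.2% to 98.6%. Reads carry no molecular identifiers, so floors cover counting error only.

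Counts were tested with edgeR 4.0.16 in R 4.3.3. TMM factors were 0.854 to 1.166, and entries were filtered by filterByExpr with the stage as group. A robust quasi-likelihood fit of group means used all 9 libraries (6 residual degrees of freedom), with the contrast adult minus 3rd instar. P-values were adjusted by Benjamini-Hochberg over the 179 tested entries, or 131 seed groups. An SE is the size of the log2 fold change over the square root of F. Fits were tested on simulated counts. The members and lists were chosen with earlier results of these data known.

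Named entries are those called or passing the adjusted p, the 8 largest changes in each direction without overlap and with a mean of at least 10 CPM, the 10 most abundant, the 3 smallest p-values per list, and entries sharing a seed or sequence with a call. Entries named from seed groups, nested pairs and x and y pairs outside that rule were chosen after their values were seen. Alternatives were DESeq2 1.42.0, RLE factors, totals without the 5 most abundant entries, library totals alone, no filter, at least 10 CPM in 3 libraries, the 2 stages alone, a replicate block, known entries only, entries of 1 sequence summed, and each library left out. The TPM-implied totals and the removal of entries of 18 or 19 nt were chosen after seeing the data, as was leaving out the adult library of most counts for entries at 0 in the 3rd instar.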

Additional observations from a re-analysis of the deposited data

How the results depend on the processing

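The 7 calls became 19 with library totals alone (16 higher, 3 lower, all 7 among them), which moves the median log2 fold change of all entries by 0.18, and 16 with DESeq2 (8 higher, 8 lower, 6 of the 7 among them). Leaving out 1 library gave 3 to 9 calls. The 14 entries under the adjusted p alone became 31 with library totals alone (27 higher, 4 lower), 31 with DESeq2 (16 higher, 15 lower) and 22 with the replicate block (13 higher, 9 lower), and 4 to 16 without 1 library. The 8 called seed groups became 15 with DESeq2 and 3 to 7 without 1 library. Replicate numbers are shared between the stages, and whether such samples share more than a number is not known here. Deviations of same-numbered adult and 3rd instar libraries correlated at 0.141, 0.146 and 0.0149. Correlations with same-numbered 5th instar libraries ran from -0.222 (adult replicate 1) to 0.410 (3rd instar replicate 3). The block gave 7 calls, 6 of them shared. Of the alternatives chosen after seeing the data, TPM-implied totals kept the same 7 calls. Without entries of 18 or 19 nt there were 8 calls, 5 of them shared, with a shift of the median by -0.12. In that setting 20 entries passed the adjusted p alone, miR-216-z had a log2 fold change of 0.97, and miR-2788-y was itself removed.

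Changes of sign were seen among entries near equality. With library totals alone the log2 fold change was 0.057 for miR-276-y, 0.12 for miR-8-z and 0.0034 for miR-2-y. With 1 library left out it ran from -0.12 (adult replicate 1) to 0.52 for miR-8-y. For miR-8-z it ran from -0.53 to 0.18, and was 0.12 without adult replicate 2, 0.18 without adult replicate 3 and 0.07 without 3rd instar replicate 1. For miR-306-x it was -0.0067 with RLE factors, -0.0069 with DESeq2, -0.031 with at least 10 CPM in 3 libraries, -0.050 without adult replicate 1, -0.076 without 3rd instar replicate 2 and -0.045 with known entries only. The cause was not tested. The share of the 18 nt predicted entry differed by -7.64 to -0.676 percentage points without 1 library. Depth limits entries of few counts most, and 186 of 365 were not tested.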
